A study of Mus musculus with 6 samples.

Results

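Wild-type KLF3 occupied 556 regions of the mouse genome at a level at least 4-fold above that of ΔDL, a KLF3 mutant that is defective for contact with the corepressor CtBP. These regions were chosen by the peak heights themselves, as the peaks of the ChIP-seq table at which the log2 height of ΔDL minus that of KLF3 was -2 or less. They made up 2.51% of the 22188 peaks in the table, and their nearest transcription start sites (TSSs) belonged to 531 genes. The low ΔDL height and the KLF3 height therefore defined the group, and every comparison with other peaks that involves either, the peak calls of these constructs included, is a description. The DBD height, the position and the sequence were not used in the choice. No peak height could be tested, because the heights combine both replicates of a construct.

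KLF3 is a Krüppel-like factor whose C-terminal zinc fingers recognize CACCC boxes and related GC-rich sequences, and which mostly acts as a repressor. Its N-terminal domain holds a short PVDLT motif that binds CtBP, and CtBP in turn brings histone-modifying enzymes to the DNA. Zinc fingers of this kind find many more matches in the genome than the factor occupies, so regions outside the DNA-binding domain are of interest for where the protein goes.

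The protein was followed in Klf3-/- murine embryonic fibroblasts (MEFs) of the C57BL/6 strain, which make no KLF3 of their own. The MEFs had been rescued by MSCV retroviral transduction with V5-tagged Klf3 (KLF3), with Klf3 carrying AS in place of DL in the CtBP-contact motif (ΔDL), or with the zinc finger domain and an adjacent putative nuclear localization signal alone (DBD). Anti-V5 ChIP-seq was performed for these 3 constructs in 2 replicates each, with a paired input for every replicate. Each line was a single stable clone selected with puromycin, so the construct and the clone cannot be told apart.

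Peak heights are tags in 400 bp around the peak center per 100 M tags, called tags below, and log2 heights are their logarithms. Where 3 values follow each other they are in the order KLF3, ΔDL and DBD. The combined libraries held 23.3 M (KLF3), 11.8 M (ΔDL) and 16 M (DBD) tags, so that 1 sequenced tag counted as 4.29, 8.45 and 6.23 tags, respectively. A median member therefore rested on about 67, 6 and 4 sequenced tags. Tags counted per replicate, inferred from the spacing of the peak scores, ran from 1.77 M to 18.1 M. The lowest total was that of ΔDL replicate 1. The paper reports more mapped reads than this for every replicate, so these totals are not the sequencing depth. A sequenced tag here means a tag counted in these totals. Regions and nearest genes follow the annotation of the deposited table, on the mm9 build.

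The sequence at the center of promoter members was dense in KLF-type matches, meaning the letters CACCC or CGCCC on either strand. Stretches of up to 100 bases at the center of high promoter members, and of members at genes described below, are shown for this reason, read from the mm9 plus strand outside annotated exons. Capitals mark the KLF-type matches.
Rc3h1 (chr1:162836377-162836476): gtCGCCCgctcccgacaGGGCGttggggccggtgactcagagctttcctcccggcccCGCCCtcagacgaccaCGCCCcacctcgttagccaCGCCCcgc
Zbtb37 (chr1:162964622-162964721): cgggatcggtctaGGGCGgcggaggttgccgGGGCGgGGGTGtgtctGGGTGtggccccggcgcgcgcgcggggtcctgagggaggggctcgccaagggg
Uck2 (chr1:169215333-169215432): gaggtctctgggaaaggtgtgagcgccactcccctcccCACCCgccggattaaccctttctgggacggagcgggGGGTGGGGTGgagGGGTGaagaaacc
Uhrf1 (chr17:56443648-56443730): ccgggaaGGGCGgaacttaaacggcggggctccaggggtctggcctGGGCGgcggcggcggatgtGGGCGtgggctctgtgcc
Osbpl2 (chr2:179853732-179853831): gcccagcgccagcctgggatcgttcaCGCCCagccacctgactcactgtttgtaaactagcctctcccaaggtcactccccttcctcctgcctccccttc
Inf2 (chr12:113826895-113826989): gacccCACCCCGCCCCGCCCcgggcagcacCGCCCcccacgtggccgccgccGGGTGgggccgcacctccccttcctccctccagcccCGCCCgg
E2f1 (chr2:154395818-154395917): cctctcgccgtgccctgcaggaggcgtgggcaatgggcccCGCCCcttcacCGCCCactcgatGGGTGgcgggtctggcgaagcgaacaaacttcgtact
Vegfa (chr17:46169332-46169392): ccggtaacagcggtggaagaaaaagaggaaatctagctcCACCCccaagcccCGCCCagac
Zfp36l2 (chr17:84587879-84587978): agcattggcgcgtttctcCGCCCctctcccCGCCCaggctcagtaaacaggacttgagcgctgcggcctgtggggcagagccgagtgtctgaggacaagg

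Each of these stretches held between 1 and 6 KLF-type matches. The high members shown were chosen among those with a match, so at least 1 was fixed in advance for them. For comparison, promoter peaks at which ΔDL was no lower than KLF3 are shown for Immt, Glt25d1 and Dohh, chosen as high KLF3 peaks that also carry a CCAAT or an ETS-type match. Capitals again mark the KLF-type matches only.
Immt (chr6:71781162-71781261): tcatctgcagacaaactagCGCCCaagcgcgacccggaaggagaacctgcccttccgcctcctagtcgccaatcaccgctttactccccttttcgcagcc
Glt25d1 (chr8:74134803-74134902): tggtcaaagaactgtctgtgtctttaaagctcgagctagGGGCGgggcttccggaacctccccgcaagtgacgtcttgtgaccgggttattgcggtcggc
Dohh (chr10:80847060-80847159): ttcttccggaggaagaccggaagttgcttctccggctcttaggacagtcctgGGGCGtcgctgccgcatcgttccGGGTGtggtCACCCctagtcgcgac

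The Immt peak had 1010, 1552 and 99 tags. The Glt25d1 peak had 873, 1003 and 52.3 tags, and the Dohh peak had 826, 917 and 112. Their CCAAT or ETS-type matches follow from how they were chosen, and are not set against the members.

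The highest members were promoters of genes with unrelated products. The member with the tallest KLF3 peak lay 25 bp upstream of the TSS of 1700123M08Rik (chr4:11893496-11893896), with 1663, 393 and 50.2 tags. The promoter of Anxa5, a calcium-dependent phospholipid-binding protein, had 1563, 391 and 80.4 tags (chr3:36374441-36374841). At Rc3h1, which encodes the mRNA decay factor roquin-1, the promoter peak (chr1:162836226-162836626) had 1418, 317 and 74.5 tags. In all 3 the order was KLF3, ΔDL, DBD, with the DBD peak much the lowest.

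The next members by KLF3 height were Zbtb37, Uck2, Adss, Marcks, Uhrf1, Ankrd10 and Tmem123, with KLF3 heights of 1176 to 1418 tags, ΔDL heights of 211 to 320 and DBD heights of 46.5 to 76.6. Uck2 encodes a uridine-cytidine kinase and Adss a synthase of adenine nucleotides. Uhrf1, which maintains DNA methylation at replication, had 1193, 234 and 60.1 tags (chr17:56443497-56443897). Marcks, an actin-linked substrate of protein kinase C, was the exception in position, since its peak lay in the intron 1787 bp downstream of the TSS, with 1193, 294 and 66.7 tags.

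Among members with a log2 KLF3 height of at least 8, the deposited ΔDL height was lowest relative to KLF3 at the promoter of Nrtn, which encodes the growth factor neurturin (chr17:56896876-56897276). KLF3 had 274 tags there and ΔDL essentially 0, which places ΔDL at least 10.8-fold lower when 3 sequenced tags are taken as the limit that a count of 0 allows over the combined libraries. This bound is smaller than the differences that follow, so Nrtn cannot be ranked against them. The other large differences were at peaks near H3f3a, near Arhgap8, in Elf4 and in Pik3c2g, where ΔDL rested on 2 or 3 sequenced tags. Their log2 differences were -4.31 (95% counting interval -7.64 to -2.68), -4.07 (-7.05 to -2.06), -3.95 (-6.26 to -2.37) and -3.85 (-7.10 to -2.11). None of these peaks except that of Nrtn was at a promoter, and the intervals, which cover counting error only, overlap each other.

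Few members were far beyond the threshold. The log2 difference was between -2.5 and -2 at 354 members, between -3 and -2.5 at 122, between -4 and -3 at 63 and below -4 at 17. Outside the group, 1827 peaks of the table lay between -1.5 and -1. The 3 tallest members at the limit were the promoters of Anxa5, Fez2 and Brd3, at -2, with 1563, 662 and 458 tags for KLF3 and 391, 165 and 115 for ΔDL. The 3 tallest peaks just outside it, at -1.99, were the promoter of Klf11 with 1342 and 338 tags, an intron of 1700054N08Rik with 917 and 231, and the promoter of Arhgap31 with 891 and 224. From counting alone, the whole 95% interval lay below a 4-fold difference at 21 of the 556 members and below a 2-fold difference at 437. ΔDL rested on 3 or fewer sequenced tags at 109 members and on 0 at 4.

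**Figure D1:**
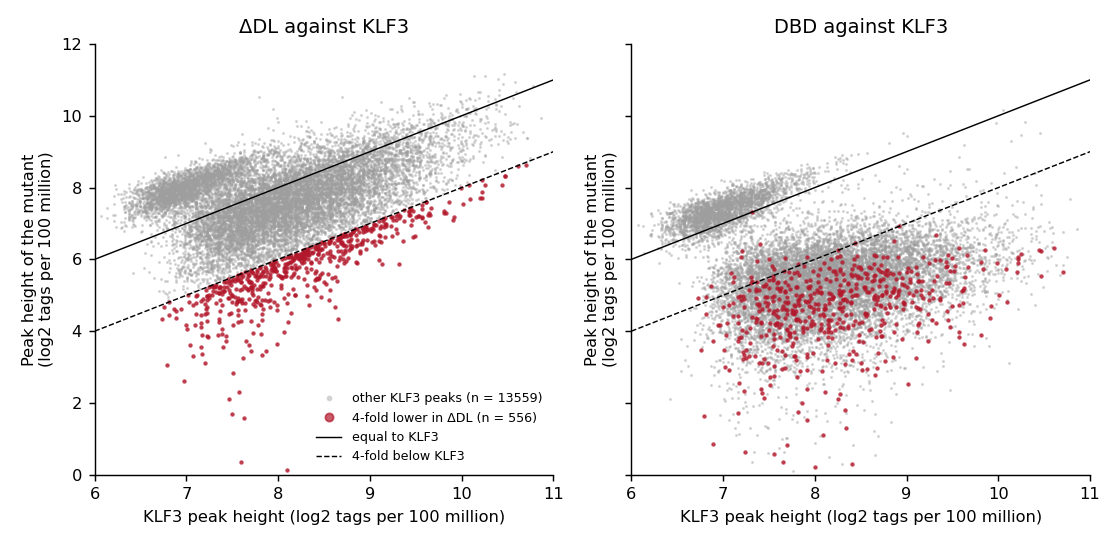
Log2 peak height of ΔDL (left) and of DBD (right) against log2 KLF3 peak height, in tags per 100 M, with 1 point per peak listed for KLF3; red points are the 556 members and grey points the 13559 others, the solid line marks equal heights and the dashed line a height 4-fold below KLF3. The members lie below the dashed line on the left by their definition, and on the right they spread through the lower part of the grey cloud, with 531 of 556 below the dashed line.

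Promoters were the most frequent location. The table placed 248 members (44.6%, 95% Wilson interval 40.5 to 48.8%) at a promoter, 143 in an intron and 126 between genes. Promoters made up 29.6% of the other 13559 peaks listed for KLF3 and 20.1% of the whole table. With each log2 difference centered on peaks of the same G+C content, an alternative added after seeing the data, the promoter share was 13.9%, which is below that of the other KLF3 peaks. The remaining 39 members lay in 5' UTRs (13), exons (11), transcription termination sites (10), non-coding exons (3) and 3' UTRs (2). Counted the other way, 5.82% of the KLF3-listed promoter peaks were members, against 3.30% of the intron peaks and 2.52% of the intergenic peaks. The share was higher than at promoters in the small classes, with 9.65% of exon, 9.29% of 5' UTR, 8.11% of non-coding and 7.04% of termination site peaks.

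Many members outside promoters also lay close to a TSS. Of the 308 members outside promoters, 81 (26.3%) were within 1000 bp of a TSS, against 7.31% of the other KLF3 peaks outside promoters. The 143 intron members had a median position 771 bp downstream of the TSS, against 11470 bp for the other intron peaks, and 56.6% of them were in a first intron, against 42.8%. Within promoters the position did not set members apart, with a median of -76.5 bp for members and -77 bp for the others.

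DBD was low at the members as well. Across the 556 members the DBD height ran from 1.16 to 161 tags, with a median of 28.0 tags, or 4.80 on the log2 scale, while the median of the whole table was 6.19. At promoter members the median was 29.2 tags (log2 4.87, 95% interval of the median 4.76 to 5.01), against 43.1 tags (5.43, 5.40 to 5.47) at the other 4011 KLF3 promoter peaks. At intron members it was 27.7 tags against 53.1, and at intergenic members 29.2 against 62.7. The members were lower in every one of these classes although their KLF3 peaks were taller, with promoter medians of 360 and 322 tags for KLF3.

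Outside promoters many of the other peaks were also listed for DBD, whereas no member was. Such peaks made up 20.3% of the other intron peaks and 29.2% of the other intergenic peaks. Without them the medians of the others were 44.0 tags in introns and 44.9 between genes, still above those of the members, by 0.67 and 0.62 on the log2 scale. At promoters only 47 of the others (1.17%) were listed for DBD, and 4.79% were called in either DBD replicate. The promoter medians therefore compare mostly uncalled DBD signal. They differed by 0.55 without the DBD-listed peaks.

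**Figure D2:**
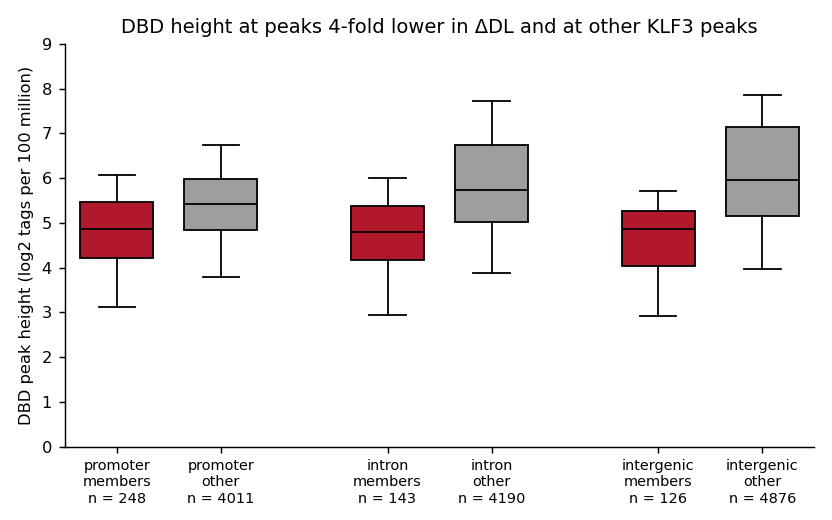
Log2 DBD peak height, in tags per 100 M, at members (red) and at other peaks listed for KLF3 (grey) in promoters, introns and intergenic regions; boxes span the quartiles with the median as a line, and whiskers run from the 5th to the 95th percentile over peaks. The median of the members is 4.87, 4.79 and 4.87 in the 3 regions and that of the other peaks 5.43, 5.73 and 5.97.

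The same direction held at each KLF3 height. Among promoter peaks with a log2 KLF3 height of 9 or more, 65 members had a median DBD height of 42.2 tags against 60.1 at the others. Between 8.5 and 9 the medians were 33.4 and 46.2 tags, between 8 and 8.5 they were 29.2 and 41.4, and below 8 they were 22.5 and 34.3. DBD was at least 4-fold below KLF3 at 531 members (95.5%), against 43.4% of the whole table. Since members have tall KLF3 peaks by their definition, the nearer comparison is with KLF3 promoter peaks, where the share was 98.4% for members and 87.0% for the others.

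The members with the tallest DBD peaks differed in how far DBD lay below KLF3. The highest DBD value was at a peak in an intron of Spice1, a centriole protein, with 160, 39.4 and 161 tags (chr16:44357992-44358392), so that DBD equalled KLF3 there. The first intron of Smad3 followed, with 484, 108 and 123 tags (chr9:63569430-63569830), then the first intron of Arvcf with 639, 141 and 102, and the promoter of Fam20c with 465, 115 and 91.8. The fifth was the first intron of Smad2, with 347, 79.9 and 88.0 tags. Smad2 and Smad3 encode receptor-activated SMADs of the TGF-beta pathway. At both, DBD was slightly above ΔDL, from 14 and 20 sequenced tags against 9 and 13, a difference that was not tested. At the other end, DBD had essentially 0 tags at Olfml2b, Asap2 and Cx3cl1, and it rested on 3 or fewer sequenced tags at 196 members.

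The replicate peak lists gave a separate view of the same libraries. Every member overlapped a called peak in both KLF3 replicates, which follows from being listed for KLF3. In ΔDL replicate 1, 7 members (1.26%) overlapped a called peak, against 57.4% of all table peaks, and in ΔDL replicate 2 there were 64 of 556 against 82.8%. In DBD replicate 1 no member did (0 of 556, which allows a share of up to 0.54% with 3 counts as the limit) against 31.0% of the table. In DBD replicate 2 there were 2 (0.36%), at Smad3 and A230028O05Rik, against 27.4%. In the KLF3 replicates the share was 100% of members by definition, against 80.1% and 66.7% of the table.

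The members called in ΔDL lay mostly at promoters. Of the 248 promoter members 52 (21.0%) were called in either ΔDL replicate, against 76.8% of the other KLF3 promoter peaks. Of the 308 other members 14 (4.55%) were, against 79.0% of the other KLF3 peaks outside promoters. The low ΔDL height chose the members, so these differences are a description. At the 64 members called in ΔDL replicate 2 the median score was 92.8 tags per 100 M, against 440 and 415 in the KLF3 replicates. The median log2 difference from KLF3 was -2.18 with replicate 1 and -2.1 with replicate 2. At the 3035 KLF3 promoter peaks outside the group that were called in that replicate, this median was -0.81 and -0.47. The 2 sets are not alike in position, since 51 of the 64 members were at promoters and 13 were not. The combined heights that chose the members hold these same replicates, so the low ΔDL scores restate the choice.

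The 5 members called in both ΔDL replicates were the promoters of 1700123M08Rik, Anxa5, Rc3h1, Tmem123 and Osbpl2. At Rc3h1 the scores were 1319 and 935 in KLF3 replicates 1 and 2, and 510 and 156 in ΔDL replicates 1 and 2, where 510 stands for only 9 sequenced tags. At Anxa5 they were 1008 and 868 for KLF3 and 453 and 303 for ΔDL. Osbpl2, an oxysterol-binding protein, had 1503 and 923 for KLF3 and 283 and 166 for ΔDL. Glipr2 and a peak near Hoxb5 were called in ΔDL replicate 1 alone, each from 5 sequenced tags.

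Promoter members were rich in KLF-type letters and poor in those of some other factors. In the central 100 bp, 96.8% of the 248 promoter members (95% interval 93.8 to 98.4%) held CACCC or CGCCC on either strand, against 89.0% (88.0 to 89.9%) of the other KLF3 promoter peaks and 56.5% of the 45982 windows of the same length immediately upstream of annotated TSSs. The mean number of matches was 3.06 at members and 2.11 at the others, and 62.5% against 34.9% held 3 or more. For the letters CACCC alone the shares were close, 36.7% and 35.8%, so the excess was in the CGCCC form. Outside promoters 71.8% of members held a KLF-type match, against 50.8% of the other KLF3 peaks. Members were also higher in flanks away from the center, placed as for CCAAT below. There 54.2% of promoter members and 46.0% of the other KLF3 promoter peaks held a KLF-type match. Outside promoters the flank shares were 35.2% and 23.9%. The higher shares at members were therefore not limited to the peak center.

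CCAAT, the box bound by NF-Y, was present in the central 100 bp of 8.06% of promoter members (5.28 to 12.1%) and of 17.7% of the others (16.5 to 18.9%). CCGGAAG, an ETS-type match, was present in 4.44% (2.49 to 7.77%) and 11.7% (10.7 to 12.7%). In flanks 400 to 500 bp from the center the shares were closer, 8.47% and 9.61% for CCAAT and 1.21% and 1.71% for the ETS-type letters. NRF1-type letters (GCGCANGCGC, N being any base) were found in 1.21% of members and 3.52% of the others, with intervals that overlap. Matches to E2F-type (GCGGGAA) letters were found in 3.63% and 4.51%, and to AP-1-type (TGANTCA) letters in 2.42% and 2.37%, again with overlapping intervals. In the windows upstream of annotated TSSs the shares were 17.6% for CCAAT, 5.73% for the ETS-type letters, 3.29% for NRF1, 2.22% for E2F and 2.26% for AP-1. Read by motif, 2.74% of KLF3 promoter peaks with CCAAT were members, against 6.46% of those without, and the median ΔDL minus KLF3 difference over all such peaks was -0.51 with and -0.77 without it.

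Sequences of other factors were present at the members outside promoters. The AP-1-type letters were found at 17.2% of these 308 members and at 18.4% of the other KLF3 peaks outside promoters, against 2.60% and 3.50% in the flanks. The TEAD-type letters (GGAATG) were found at 9.74% and 10.8%, against 5.03% and 5.54% in the flanks. The RUNX-type letters (TGTGGTT) were found at 4.22% and 5.47%, against 1.95% and 2.28% in the flanks. The intervals of these 3 shares overlap between members and others. Those of 2 other motifs did not, with the E2F-type letters at 3.25% of members (1.77 to 5.87%) and 1.01% of the others (0.824 to 1.23%) and the letters CGCG at 23.7% (19.3 to 28.8%) and 7.03% (6.53 to 7.56%). In the flanks the members were higher as well, with 1.3% and 0.471% for the E2F-type letters and 16.1% and 4.59% for CGCG. Every motif was searched on both strands, and a match is a description of the letters only.

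**Figure D3:**
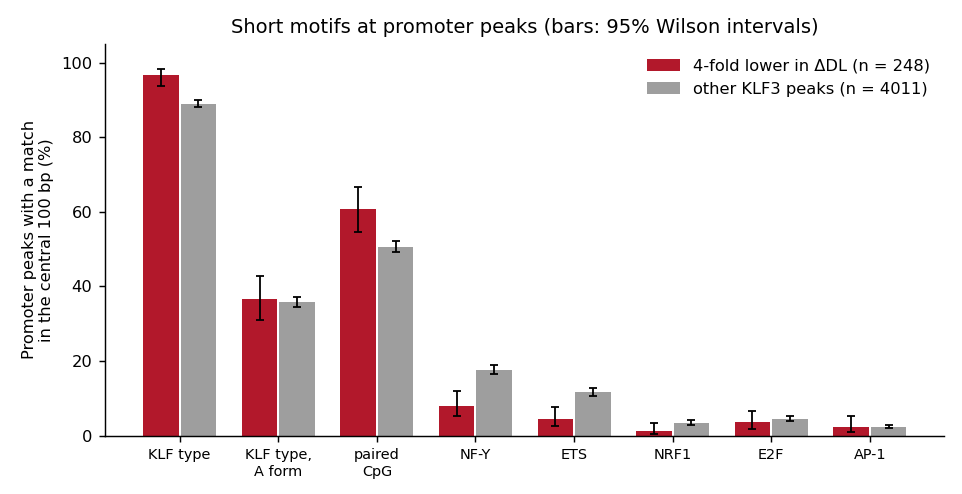
Share of promoter peaks with a match to short motifs in the central 100 bp, in percent, for the 248 promoter members (red) and the other 4011 KLF3 promoter peaks (grey), with 95% Wilson intervals; KLF type is CACCC or CGCCC, its A form is CACCC, paired CpG is CGCG, and NF-Y is CCAAT. KLF-type matches are more frequent at members (96.8% against 89.0%), CCAAT and ETS-type matches less frequent (8.06% against 17.7% and 4.44% against 11.7%).

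Members were rich in G and C in every class of region. The median G+C content of the 400-bp regions was 70% at promoter members and 63.3% at the other KLF3 promoter peaks, and members had 9.98 CpG dinucleotides per 100 bp against 7.73. In introns it was 59.6% against 46.9%. There 39.9% of the 143 members were annotated as CpG islands, against 9.97% of the others, of which only 3188 of 4190 carried this annotation. Between genes the median G+C content was 51.5% against 44.4%. The shares in CpG islands were 19.0% of the 126 members and 4.84% of the 3407 annotated peaks among 4876 others. Mean PhastCons conservation was 0.306 at the 244 promoter members with a score and 0.265 at the 3292 of 4011 others with one. The island annotation and the score were present for 552 of the 556 members and for 10268 of the 13559 others. The loss was thus uneven between the sets, and whether the peaks without these values differ was not tested.

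Across all KLF3 promoter peaks the share of members was higher at higher G+C content. It was 1.16% both below 55% G+C (7 of 606 peaks) and from 55 to 60%, then 3.46%, 7.18% and 11.7%, and it reached 23.8% at 75% or more (55 of 231). The median ΔDL minus KLF3 difference of all these peaks went from -0.12 to -1.5 over the same bins, and the DBD minus KLF3 difference from -2.39 to -3.59. These medians are over all KLF3 promoter peaks of a bin, most of which were not members. When each log2 difference was centered on the peaks of the same G+C content, as above, 409 peaks passed the threshold, 250 of them members, and only 13.9% of the 409 were promoters. The part of G+C content in these results was not tested.

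The DBD height and the CCAAT share kept their direction within most G+C bins. In each of the 6 bins the median DBD height of members was below that of the others. The size of the difference varied, and without bins the medians were 4.87 and 5.43 on the log2 scale. The bin with most members (65 to 70%, 71 members) gave 4.71 against 5.33. The values were close from 60 to 65%, at 5.31 and 5.42, and from 70 to 75% (69 members), at 4.93 and 5.05. At 75% or more they were 4.51 and 4.89. CCAAT was present in 5.63% of members against 17.3% of the others from 65 to 70% and in 7.27% against 10.2% at 75% or more. Below 60% the order was reversed, at 3 of 7 and 2 of 9 members with the box. The mean number of KLF-type matches was higher at members in every bin, from 2.00 against 1.25 below 55% to 3.38 against 2.94 at 75% or more.

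**Figure D4:**
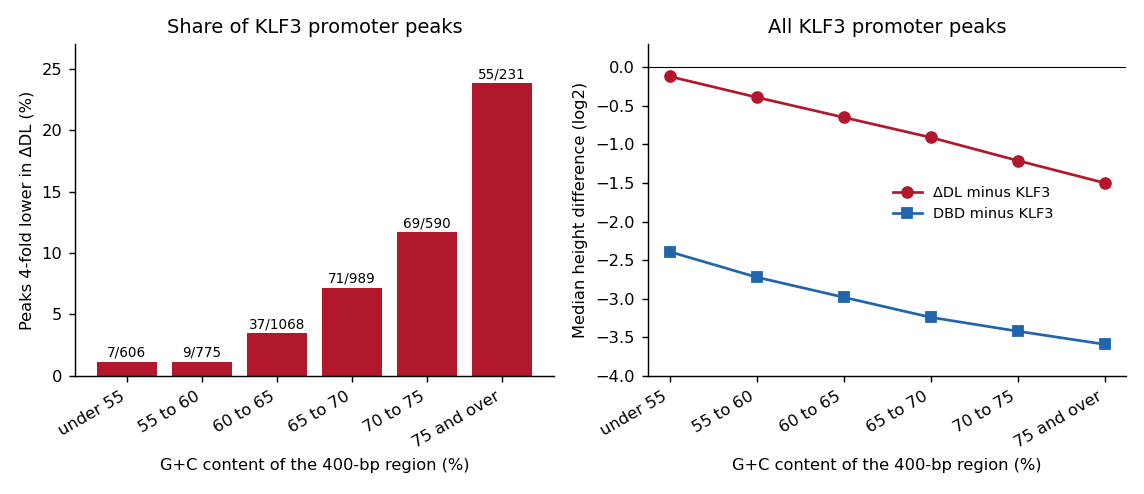
Left, percent of KLF3-listed promoter peaks that were members, by the G+C content of the 400-bp region in percent, with members and peaks as numbers above the bars; right, the median log2 height difference of ΔDL (red circles) and DBD (blue squares) from KLF3 over all these promoter peaks. The share of members rises from 1.16% to 23.8%, and both differences become more negative along the axis.

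Membership also varied along the genome. At promoters 9.84% of KLF3 peaks on chromosome 1 were members, and on chromosome 1 from 150 Mb onward it was 18.6% (18 of 97), against 4.46% before that point and 5.57% on the other chromosomes. The lowest shares were on chromosomes 19 (1.11%) and 3 (1.69%), and the highest after chromosome 1 were on 16 (8.48%) and 17 (8.2%). This boundary was set after seeing the data. Among windows of 10 Mb with at least 10 KLF3 promoter peaks, higher shares were also found elsewhere, such as 31.2% on chromosome 7 from 100 to 110 Mb (5 of 16) and 30% on chromosome 4 from 80 to 90 Mb (3 of 10), against 29.4% at most on distal chromosome 1 (5 of 17). The lowest median ΔDL minus KLF3 difference of a window was -1.6, on chromosome 17 from 70 to 80 Mb. The distal part of chromosome 1 held 41 of the 556 members (7.37%) and 2.14% of the table, and it gave 5 of the 20 members with the tallest KLF3 peaks: Rc3h1, Zbtb37, Uck2, Adss and Opn3.

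The shift there was not limited to members. Over all 97 KLF3 promoter peaks of distal chromosome 1 the median ΔDL minus KLF3 difference was -1.37, against -0.70 on the other chromosomes, and the DBD minus KLF3 difference was -3.59 against -3.01. ΔDL and DBD kept their distance from each other, at 2.22 and 2.25 log2 units. The KLF3 height was 8.69 against 8.34, that of ΔDL 7.33 against 7.61 and that of DBD 5.21 against 5.41. Outside promoters 9.35% of distal chromosome 1 peaks were members, against 2.99% on the other chromosomes. On chromosome 16 the promoter medians were -1.04 and -2.99. Each line is 1 clone, and the input libraries were not analysed here. Clone and construct cannot be told apart here either.

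**Figure D5:**
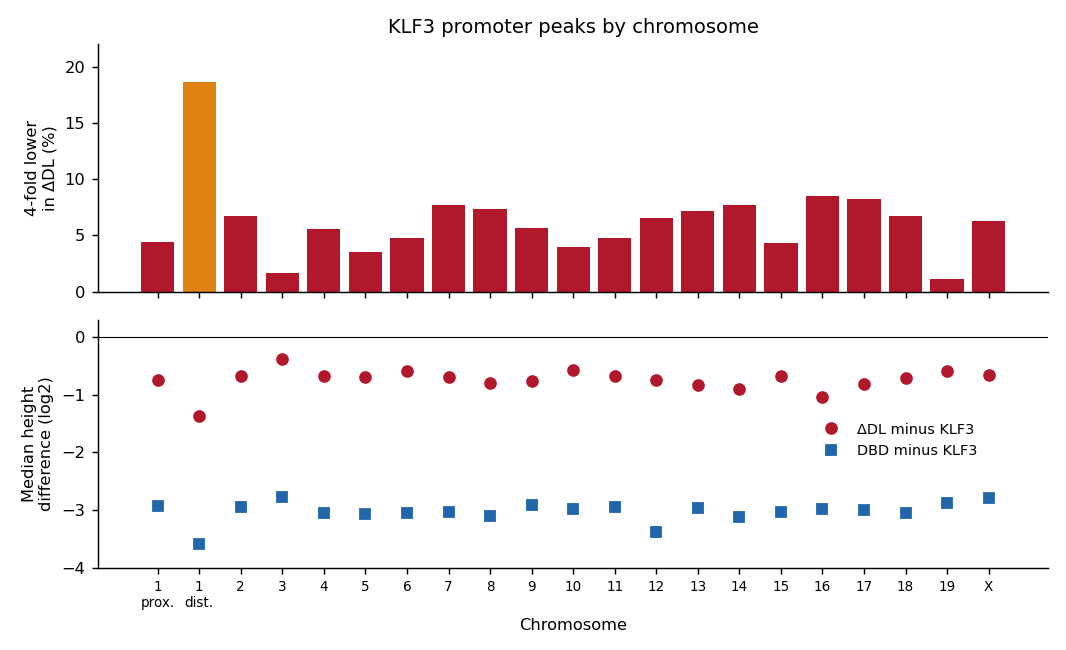
Top, percent of KLF3-listed promoter peaks that were members on each chromosome, with chromosome 1 shown in a proximal part (before 150 Mb) and a distal part (from 150 Mb, orange); bottom, the median log2 height difference of ΔDL (circles) and DBD (squares) from KLF3 over the same peaks. The distal part of chromosome 1, delimited after seeing the data, has a share of members of 18.6% and median differences of -1.37 and -3.59, and is set beside whole chromosomes here.

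Gene groups were counted at promoters by the start of the gene symbol, with some genes added by their whole symbol. The groups were chosen with part of the peak data seen, so their shares are a description. Of the genes named below, Inf2, Raph1, Rdx, Uhrf1, Lpgat1, F11r, Arvcf and, in the Wnt group, Znrf3 were added by whole symbol. So were some genes without a member. Among all genes, as the background, 247 of the 4226 with a promoter peak (5.84%) had a promoter member. No cytosolic ribosomal protein gene (0 of 25), no mitochondrial ribosome gene (0 of 19) and no KLF or Sp gene (0 of 10) had one. The median ΔDL minus KLF3 difference of their promoter peaks was -0.03, -0.14 and -0.28, against -0.68 over all promoter peaks. At the KLF and Sp genes DBD was nevertheless low, with a median of -3.97 against KLF3. Mrpl14 and Mrpl48 had members in introns. These groups are small, and nothing particular to them is read from the counts.

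Signalling groups had larger shares on small numbers. Of 18 growth factor and TGF-beta genes 4 had a promoter member, namely Igf1r, Socs2, Tgfb1 and Vegfa, and the median difference over the group was -1.42. The Igf1r promoter, of the IGF-1 receptor, had 501, 92.4 and 27.5 tags. The promoter of Socs2, a feedback inhibitor of cytokine signalling, had 626, 137 and 30.3, and that of Tgfb1 had 261, 37.0 and 13.8. Members outside promoters at Pdgfa, Smad2 and Smad3 brought this group to 7 genes. In the Wnt group, 2 of 9 genes (Bcl9l and Znrf3) had a promoter member, and Axin2, Wnt10b and Wnt7b had members elsewhere.

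Genes of cell shape were also represented. Of 30 genes of the actin and membrane skeleton 4 had a promoter member (13.3%: Inf2, Myo9a, Raph1 and Rdx). The promoter of Inf2, a formin, had 781, 194 and 35.3 tags, and that of Raph1, a lamellipodin that binds Ena/VASP proteins, had 781, 193 and 27.7. The median difference of the group was -1.16. Coro1c, Coro2b and Marcks had members in other positions. Of 11 integrin and junction genes 2 had a promoter member (F11r and Itgb5), and Arvcf and Itga11 had one elsewhere.

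In the lipid group 4 of 15 genes had a promoter member (26.7%), the largest share of any group counted. They were Osbpl2 and Osbpl9, which encode oxysterol-binding proteins, with 1082 and 815 tags for KLF3 and 267 and 174 for ΔDL, and the acyltransferase genes Agpat2 and Lpgat1, with 760 and 484 tags for KLF3 and 168 and 116 for ΔDL. Agpat9, Insig1, Osbpl1a and Stard13 had members outside promoters. In the group of RNA decay factors and hnRNPs 4 of 22 had a promoter member, which were Dcp1b, Hnrpll, Rc3h1 and Zfp36l2. Zfp36l2, which destabilizes mRNAs with AU-rich elements, had 481, 86.8 and 66.7 tags at a promoter peak upstream of the TSS (chr17:84587728-84588128).

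The larger groups ranged from below the background to above it. The ubiquitin and proteasome group was formed by symbols starting with Psm, Ub, Usp, Fbx, Nedd4, Rnf, Trim or Znrf, not by enzyme class. Of its 122 genes 14 had a promoter member (11.5%: Fbxl8, Fbxo21, Fbxo30, Nedd4l, Rnf170, Trim3, Ube2a, Ube2q2, Ubtd2, Usp2, Usp25, Usp34, Usp46 and Znrf3), none of them with a proteasome (Psm) symbol. The median difference of the group was -0.78. Of 88 zinc finger genes of the Zfp, Zbtb, Zkscan and Zscan series 7 had one (7.95%). Of 59 E2F, cyclin, CDK and replication genes 5 had one (8.47%: Ccne2, Cdc42ep1, Cdkn2a, E2f1 and Uhrf1), of which Cdc42ep1, an effector of Cdc42, entered through its symbol. Solute carriers (3 of 67) and membrane traffic genes (3 of 67: Rab43, Stx1a and Stx3) were at 4.48%. Of 19 microRNA genes with a promoter peak only Mirlet7i had a promoter member, while 10 others, Mir31 and Mir34a among them, were the nearest gene to a member elsewhere.

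A set of 22 genes had 2 or more members, 47 in all. Foxl1 was the nearest gene to 4 intergenic members, 6599 to 114178 bp from its TSS, with 123 to 290 tags for KLF3 and 24.6 to 55.3 for ΔDL. DBD was above ΔDL at 2 of them, with 64 against 32.2 tags and 43.4 against 28.6. Vegfa, which encodes the angiogenic growth factor VEGF-A, had 3: a promoter peak at the TSS (580, 121 and 30.3 tags), a peak 497 bp upstream (298, 69.1 and 51.3) and an intron peak (572, 127 and 32.4). DBD was below ΔDL at all 3 Vegfa members. Over all members DBD equalled or exceeded ΔDL at 99 of 556 (17.8%), a share that the choice of low ΔDL heights partly fixed. At promoters it was 7.66% of members and 0.324% of the other KLF3 peaks, and outside promoters 26.0% and 0.702%. E2f1, a regulator of entry into S phase, had a promoter member with 576, 98.4 and 42.2 tags and a first-intron member with 443, 79.3 and 22.8.

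The other genes with 2 members each included 1700057K13Rik, Adam12, Atp2c2, Efcab2, F2rl1, Gm19466, Heg1, Igsf8, Itpkb, Nr4a1, Prdm2, Prickle1, Rasa2, Slit2, Sos1, Tbc1d9, Utrn and Zmiz1. In Efcab2, F2rl1, Rasa2 and E2f1 the pair was a promoter peak and a first-intron peak close by. Counting members within 1000 bp of each other once left 548. In Nr4a1, an immediate early nuclear receptor, the pair was the promoter (413, 75.6 and 30.7 tags) and an intergenic site upstream (367, 39.9 and 7.52). In Prickle1 and Slit2 the promoter was likewise paired with a distant intergenic site.

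Other peaks at the same genes were often not as low. Within 50 kb of the TSS, 239 of the 467 member genes had 400 further peaks, of which 120 (30%) were at least 2-fold lower in ΔDL, 231 within 2-fold and 49 (12.2%) at least 2-fold higher. At other genes with a KLF3 peak the shares were 20.9% lower and 11.4% higher, and the median differences were -0.56 and -0.33. 
Several such neighbours were close, and those described here were chosen after their values were seen. At Ubtd2 the promoter member at the TSS had 428 tags for KLF3 and 82.1 for ΔDL, while a promoter peak 900 bp away had 322 and 545. At Trim47 the exon member had 370 and 73.0, and an intron peak 544 bp away had 471 and 428. Upstream of Utrn, which encodes the cytoskeletal protein utrophin, the member had 690 and 164, and an intergenic peak 496 bp away had 744 and 657. At each of these 3 genes the neighbour had the lower G+C content, with 43.9% against 79.1%, 54.1% against 72.8% and 57.9% against 73.8%. At Zfp36l2 a peak 3006 bp from the member, in the 3' UTR, had 380 tags for KLF3 and 347 for ΔDL, against 481 and 86.8 at the promoter member.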

How the data were processed

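ChIP-seq of 3 constructs in 2 replicates each was used as peak tables. Reads of 50 bp were aligned by the authors (Bowtie2 2.0.0, mm9), who called peaks in each replicate with HOMER 4.1 (5-fold enrichment over input and background, false discovery rate 0.001). Heights are log2 values of tags in 400 bp per 100 M, which the authors took from the combined tags of both replicates. Replicate scores are a signal deposited as tags per 100 M. Deposited G+C content is a fraction that the authors computed, and it equalled that computed from mm9 to within 5e-05 percentage points at 10820 peaks. Conservation is a score deposited by the authors.

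Differences were rounded to 2 decimals before the threshold of -2 was applied. Tag equivalents are heights divided by the worth of 1 tag. They are approximate, since the deposited heights are not whole multiples. Overlap with a called peak needed 1 bp. Shares have Wilson intervals, medians order-statistic intervals and height ratios exact counting intervals, all at 95% and over peaks, which are not replicates. Gene groups were formed by the start of the table's gene symbols, with some genes added by whole symbol. Named members were the 10 highest in KLF3, the 5 largest falls among log2 KLF3 heights of at least 8, the 5 highest and 3 lowest in DBD, members of the gene groups (in part by name only), genes with 2 or more members, members called in both ΔDL replicates, the 3 nearest the threshold on each side (tallest first), members not listed for KLF3 (there were none), Zfp36l2 and Rc3h1. The members, gene groups and tests were chosen with earlier results of these data known. The merged ΔDL and DBD lists were not used. Code was tested on simulated data with known answers. Scripts ran under Python 3.11.15 (pandas 2.3.3, numpy 2.4.6, pysam 0.24.0, scipy 1.17.1, matplotlib 3.10.9). Results for a few named items are not reported here.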

Additional observations from a re-analysis of the deposited data

How the results depend on the processing

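The number of peaks 4-fold lower in ΔDL was 1475 at a log2 difference of -1.5 or less, 202 at -2.5 or less, 320 and 191 with a log2 KLF3 height of at least 8 and 8.5, and 3448 when heights were scaled on the 2334 peaks listed for all 3 constructs, whose median ΔDL minus KLF3 was 1.03 (DBD minus KLF3 0.41). All 556 members passed under that scaling. Centering on chromosomes gave 512 peaks, 387 of them members, with a promoter share of 47.5%. Leaving out distal chromosome 1 gave 515.

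The promoter share was 34.2% at -2.5 or less, 56.6% and 64.9% with KLF3 of at least 8 and 8.5, and 13.9% with centering on G+C content. The median log2 DBD height was 4.95 at -1.5, 4.62 at -2.5, 4.68 with scaled heights, and 5.02 and 5.14 with KLF3 of at least 8 and 8.5. Its difference from KLF3 was -3.75 and -3.96 with those heights, -3.65 with scaled heights, -3.9 for the 556 members with scaled DBD and KLF3 heights, and -3.08 with centering on G+C content. The share with a KLF-type match was 78.7% at -2.5, 90.6% and 93.2% with KLF3 of at least 8 and 8.5, 57.0% with centering on G+C content, 90.6% and 95.7% in 200 and 400 bp, 38.8% for CACCC alone and 76.1% for the longer consensus MCRCCC (M is A or C, R is A or G). The median G+C content was 62.6% with scaled heights, 68.8% and 69.6% with those KLF3 heights, and 45.6% with centering on G+C content.

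Members called in either ΔDL replicate (66) numbered 7 to 64 without a replicate and 24 in the upper 50% of the lists by score. For DBD (2 members) the values were 0 to 2 and 1, and for KLF3 (556) the number was 556 without either replicate. Of 78 alternative values, 43 stayed within 1.5 times the count or within the interval of the value, and 35 moved. The alternatives by G+C content and without distal chromosome 1 were added after seeing the data. No paired analysis was possible because the heights combine both replicates. The number of counted tags limits the ΔDL heights most: a count of 0 allows up to 25.3 tags there, and 18.7 for DBD.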
